A study of Mus musculus with 10 samples.

Results

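ATP-binding cassette (ABC) transporters of the B, C and G classes that are linked to the efflux of kinase inhibitors and other drugs were described in a mouse leukaemia line that had grown out under dasatinib. The group holds 9 genes, taken by their symbols from the 29955 genes of the deposited count table: Abcb1a, Abcb1b, Abcb4, Abcg2, Abcc1, Abcc3, Abcc4, Abcc5 and Abcc10. All 9 symbols were found, and 7 of the genes had counts high enough to be tested (12282 genes in all). Abcb1a and Abcc3 were too low and are given as counts.

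All 10 libraries came from a murine Ph+ ALL line, an acute lymphoblastic leukaemia of precursor B cells driven by the p185 form of the fusion kinase BCR-ABL1. The line was passed through rising doses, and upon outgrowth it was frozen, given medium without drug to recover, or moved to the following dose. The dasatinib 16x group (3 libraries, biological replicates A, B and C) and the dasatinib 1x group (3 libraries, A, B and C) are lines selected at 16 times and 1 times the IC90. The DMSO 16x and DMSO 1x groups (1 library each) are lines given the solvent, labelled by the same steps, and the parental group (2 libraries, replicates A and B) had no treatment. The sources used here do not say whether RNA was taken with drug present, whether a 16x line descends from the 1x line of the same letter, or whether the libraries of a group are separate cultures. P-values therefore reflect the spread among these libraries alone, which may be technical. Total counts were 29049760 to 45813092 per library. Levels are CPM, counts scaled to the size of each library, log2 changes carry their standard error, and adjusted p-values come from edgeR's quasi-likelihood test with Benjamini-Hochberg adjustment over all 12282 genes, called at 0.05. For the main comparisons the parental and DMSO libraries form a drug-free class of 4 libraries.

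Of 10 B lineage markers, 9 were above 1 CPM in every group, with a sum of 2782 to 3048 CPM in dasatinib libraries and 3123 to 3446 CPM in drug-free ones, which did not overlap. The exception was Ebf1, at 0.0955 to 0.717 CPM. Single markers did not all follow the sum. Blnk was at 204 to 253 CPM in dasatinib and 159 to 235 CPM in drug-free libraries, and Cd22 overlapped too (85.1 to 167 against 113 to 182 CPM). Pax5 did not overlap (105 to 138 against 144 to 153 CPM). Rag1 was at 2.98 to 8.66 CPM in dasatinib 16x, 16.6 to 21.4 in dasatinib 1x, 20.3 in DMSO 16x, 56.7 in DMSO 1x and 73.8 to 76 in parental libraries. The 5 T cell markers in the table summed to at most 0.0633 CPM, and the myeloid markers to 3.63 to 8.22 CPM, mostly Lyz2. Stromal and endothelial markers summed to 47.8 to 59.8 CPM, nearly all Pecam1. Erythroid markers summed to 16.5 to 26.6 CPM in dasatinib 16x, 3.96 to 4.75 in dasatinib 1x, 34.9 in DMSO 16x, 11.8 in DMSO 1x and 4.42 to 4.98 in parental libraries. The part of these differences in the transporter results was not tested, and fewer cells of a type cannot be told apart from less RNA per cell in bulk samples.

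ABC drug efflux transporters use ATP to move substrates out of the cell across the plasma membrane. P-glycoprotein, which mice encode in a pair of genes, Abcb1a and Abcb1b, and the breast cancer resistance protein ABCG2 both carry dasatinib in humans, an inhibitor of the ABL and SRC family kinases. The multidrug resistance-associated proteins of the C class mostly export organic anions and conjugates, and Abcb4, a close relative and chromosomal neighbour of the Abcb1 genes, flips phosphatidylcholine into bile in the liver.

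Per kilobase of the longest coding transcript, the 9 genes spanned a wide range of levels. Averaged over the 10 libraries, Abcb1b stood highest at 15 CPM per kb, at the 58th percentile of the 10134 tested genes with a known length. Abcc4 followed at 10.8, Abcb4 at 8.52 and Abcc5 at 5.79 CPM per kb. Abcg2 (1.48) and Abcc10 (1.09 CPM per kb) were lower, and Abcc1 (0.17), Abcb1a (0.0138) and Abcc3 (0.00415 CPM per kb) lowest. Most of this order held within libraries: Abcb1b was above Abcc4, Abcb4 above Abcc5, Abcc5 above Abcg2 and Abcc10 above Abcc1 in 10 of 10 libraries. The neighbours Abcc4 and Abcb4 kept their order in 8 of 10 libraries, Abcg2 and Abcc10 in 7, and Abcb1a and Abcc3 in 8. These neighbours are thus not separated beyond their spread. Abcc1 was above Abcb1a in 8 of 10 libraries, all but dasatinib 16x A and B, where Abcc1 had 0 counts. In drug-free libraries Abcc1 had 48 to 159 counts and Abcb1a 2 to 9.

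**Figure D1:**
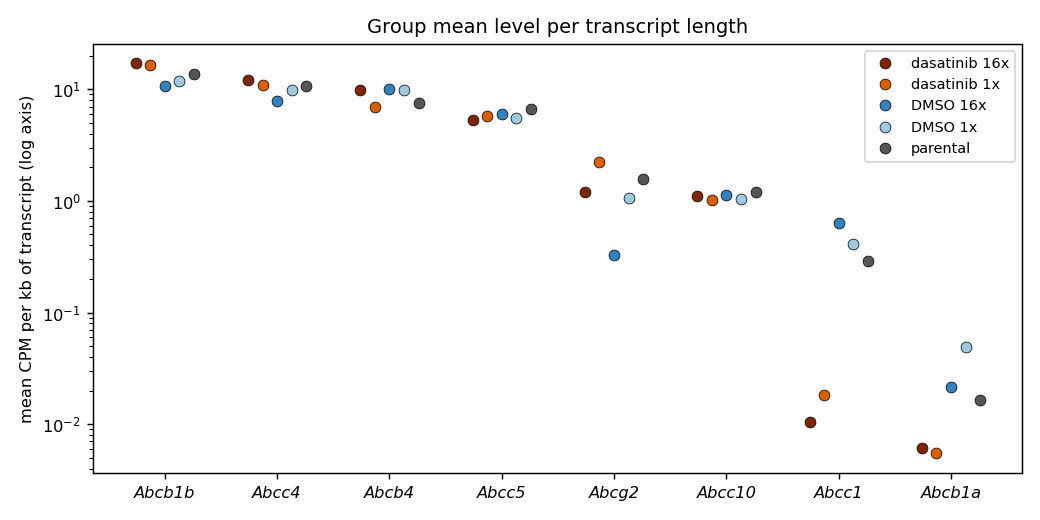
Mean level of 8 transporter genes in each group, in CPM per kb of transcript on a log axis, with a point per group and Abcc3 not drawn because it was at 0 in both DMSO libraries. Abcb1b, Abcc4, Abcb4 and Abcc5 lie within 5.29 to 17 CPM per kb in every group, while Abcc1 and Abcb1a fall lower in both dasatinib groups.

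The P-glycoprotein pair was carried by Abcb1b. Abcb1b stood at 75.4, 68.7 and 75.1 CPM in dasatinib 16x and 73.1, 70.5 and 69.4 CPM in dasatinib 1x, against 45.8 CPM in DMSO 16x, 50.7 CPM in DMSO 1x and 57 and 60.8 CPM in parental libraries. All 6 dasatinib libraries lay above all 4 drug-free ones, and the DMSO lines lay below the parental line. Abcb1a, in contrast, had 2, 1 and 1 counts in dasatinib 16x and 1, 1 and 1 in dasatinib 1x, against 4 in DMSO 16x, 9 in DMSO 1x and 2 and 4 in parental libraries. Summed, its 4 counts at 16x were 0.238 times the rate of the 19 drug-free counts (95% counting interval 0.0589 to 0.716), and its 3 counts at 1x were 0.206 times that rate (0.0391 to 0.701). The intervals cover counting error only. Every dasatinib library was under the limit of 3 counts that a count of 0 allows, and reads shared between these close copies cannot be told apart in counts per gene.

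The bases before the RefSeq start sites of this pair are shown because the genes are neighbours that encode the same pump and were read at such unequal levels. RefSeq's GRCm38.p6 table gives the 250 bases upstream of Abcb1a (chr5:8566841-8567090, plus strand) and of Abcb1b (chr5:8797897-8798146, plus strand), while the counts were made on mm9. Windows were searched on both strands for 5 motifs. Of all 32851 RefSeq windows, 32.7% hold the GC box GGGCGG, 33.8% the box named CCAAT, 12.4% the TATA box TATAAA, 10.2% the antioxidant response core TGACNNNGC and 7.02% the STAT-type palindrome TTCNNNGAA. Capitals mark matches, and no match overlaps another.
Abcb1a: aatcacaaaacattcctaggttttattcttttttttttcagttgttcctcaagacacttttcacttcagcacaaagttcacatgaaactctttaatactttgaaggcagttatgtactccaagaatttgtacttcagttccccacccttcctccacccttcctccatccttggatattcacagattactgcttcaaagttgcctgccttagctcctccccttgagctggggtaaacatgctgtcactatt
Abcb1b: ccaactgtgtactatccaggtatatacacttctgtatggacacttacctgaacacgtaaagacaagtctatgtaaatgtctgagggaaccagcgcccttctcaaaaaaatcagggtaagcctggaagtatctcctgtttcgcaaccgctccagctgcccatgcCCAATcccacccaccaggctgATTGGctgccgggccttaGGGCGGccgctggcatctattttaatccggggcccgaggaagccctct
The Abcb1b window held a GC box at -48 to -43 from the start and a CCAAT on each strand at -87 to -83 and -66 to -62. None of the 5 motifs matched in the Abcb1a window, which was 40.4% G or C, against 52.8% for Abcb1b. A match describes letters and shows no binding.

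At 1x, 2 of the 7 tested transporters were called, Abcb1b upward and Abcc1 downward, while 1.96% of all genes tested were called in either direction (0.822% higher, 1.14% lower). Abcc1 had counts high enough to be tested only through its drug-free libraries. Its place in the counts of called transporters, here and below, is therefore tied to that filter and adds no separate support. Abcb1b rose in dasatinib 1x (71 ± 1.86 CPM, SD, n = 3) relative to drug-free libraries (53.6 ± 6.66 CPM, n = 4), with a log2 change of 0.41 ± 0.09 and an adjusted p of 0.0487. That call was narrow. It held in 2 of the 10 fits that each left out a library, those without DMSO 16x (0.34, adjusted p 0.016) and without parental B (0.47, adjusted p 0.0249). It was lost without DMSO 1x (0.38, 0.131), dasatinib 1x A (0.38, 0.197), B (0.41, 0.179) or C (0.42, 0.164), dasatinib 16x A (0.41, 0.0643), B (0.41, 0.0614) or C (0.41, 0.0741), or parental A (0.44, 0.061), each given as log2 change and adjusted p. Against the parental libraries alone the log2 change was 0.27 ± 0.05 (adjusted p 0.0116).

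At 16x, 3 of 7 were called, Abcb1b and Abcc4 upward and Abcc1 downward, against 16.1% of all genes (7.79% higher, 8.33% lower). Abcb1b rose to 73.1 ± 3.79 CPM in dasatinib 16x (n = 3), against 53.6 ± 6.66 CPM in drug-free libraries (n = 4; log2 change 0.45 ± 0.09, adjusted p 0.00899), and was called in all 10 fits that left out a library. Against the parental libraries alone the log2 change was 0.31 ± 0.05 (adjusted p 0.00117). The 16x and 1x lines did not differ in Abcb1b beyond their spread (log2 change 0.04 ± 0.09, adjusted p 0.891).

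**Figure D2:**
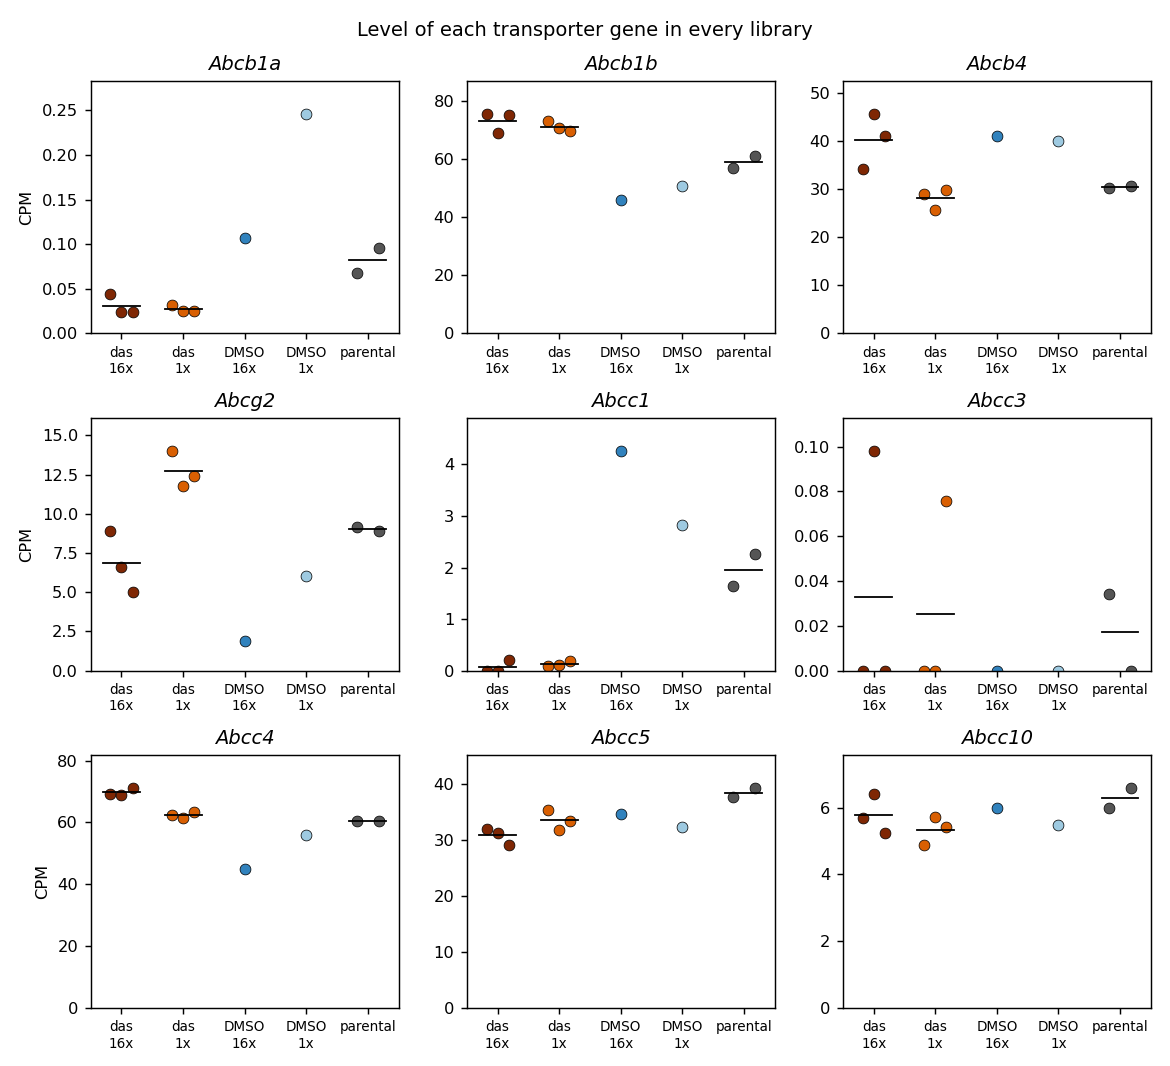
Level of each of the 9 transporter genes in CPM, with a point for every library and a bar at the mean of groups with more than 1 library. Abcb1b lies between 68.7 and 75.4 CPM in the 6 dasatinib libraries and between 45.8 and 60.8 CPM in the 4 drug-free ones, and Abcc1 is at most 0.215 CPM in dasatinib libraries and at least 1.64 CPM in drug-free ones.

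Abcb1a, Abcb1b and Abcb4 all lie on chromosome 5, and the genes of that chromosome moved together between the groups. Over its 736 tested genes the median log2 change was 0.22 for dasatinib 16x and 0.22 for dasatinib 1x against drug-free, while the medians of the other members' chromosomes lay within -0.03 to 0.01. Against the matched DMSO line the chromosome 5 median was 0.54 at 16x, where 557 genes rose and 23 fell, and 0.25 at 1x, where 361 rose and 20 fell. DMSO 16x stood at -0.47 relative to parental, with 516 genes lower and 25 higher, and DMSO 1x at -0.17. Against the parental libraries alone the medians were 0.08 at 16x and 0.07 at 1x.

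Abcb1b was above its chromosome's median by 0.22 at 16x and by 0.19 at 1x against drug-free, which put it at percentiles 88.3 and 92.9 of the chromosome 5 genes. Of the tested genes beside it, Abcb4 on one side had a log2 change of -0.03 (adjusted p 0.905) in dasatinib 16x against DMSO 16x, and Crot beyond it 0.56 (adjusted p 0.0001). On the other side Rundc3b had 1.02 (adjusted p 2.32e-07) and Slc25a40 1.12 (adjusted p 2.44e-06). Against drug-free, as for the percentiles above, Abcb1b had 0.41 at 1x and 0.45 at 16x. There Rundc3b had 0.50 and 0.29, Slc25a40 0.42 and 0.33, Crot 0.27 and 0.25, and Abcb4 -0.33 and 0.18, none of them called. Rundc3b stood at 56.8, 56.2 and 53.8 CPM in dasatinib 16x, against 27.4 CPM in DMSO 16x and 54.2 and 53.8 CPM in parental libraries. Its level was thus low in DMSO 16x and alike in dasatinib 16x and parental libraries. The part of the chromosome-wide difference in the Abcb1b result was not tested.

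**Figure D3:**
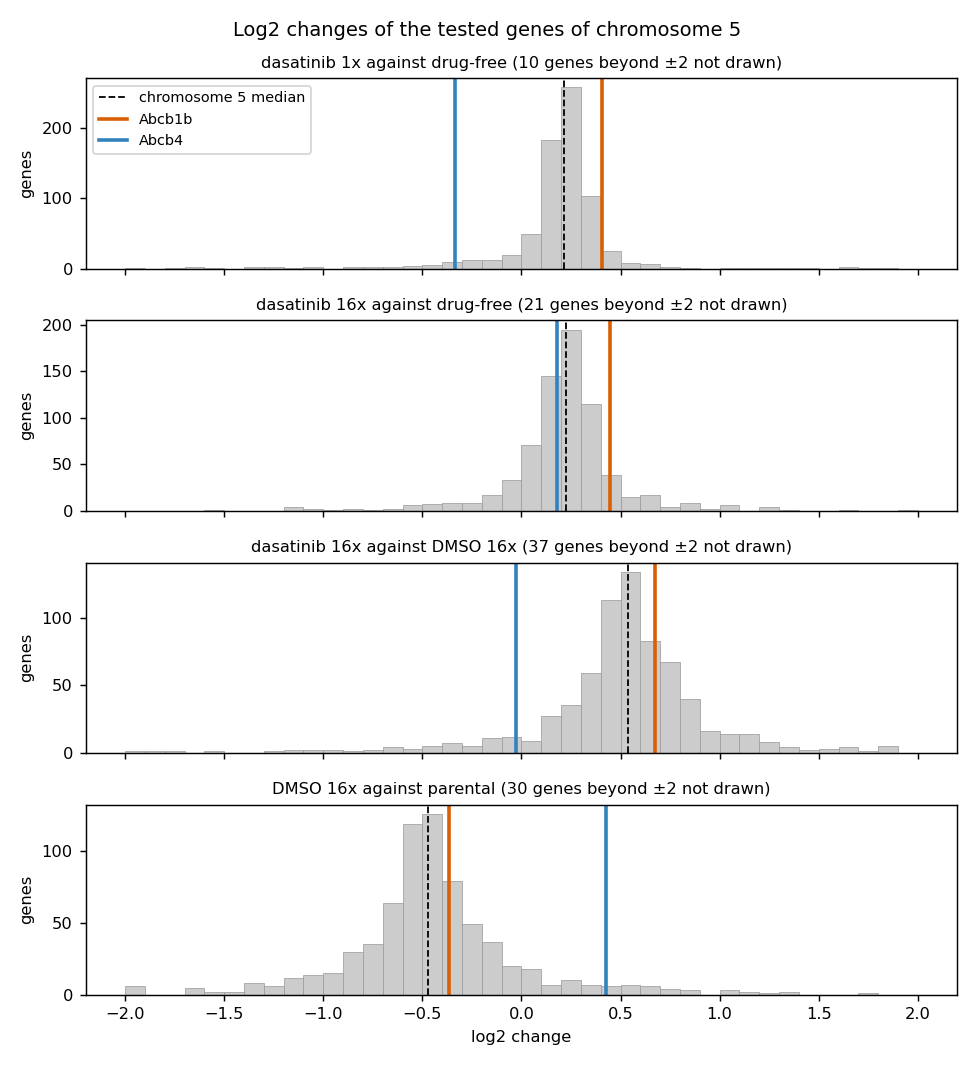
Number of tested chromosome 5 genes by log2 change in 4 comparisons, with the chromosome median dashed, Abcb1b in orange and Abcb4 in blue. The median is 0.54 in dasatinib 16x against DMSO 16x and -0.47 in DMSO 16x against parental, and Abcb4 lies on the opposite side of 0 from the median in DMSO 16x against parental (0.43).

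Abcb4, the phosphatidylcholine floppase, lay near its chromosome's median at 16x against drug-free, with a difference of -0.04 (percentile 38.7), and away from it in other comparisons. Its difference from the chromosome 5 median was -0.55 at 1x against drug-free (percentile 5.71), -0.57 in dasatinib 16x against DMSO 16x and 0.90 in DMSO 16x against parental. Abcb4 stood at 34.2, 45.7 and 41.1 CPM in dasatinib 16x and 29, 25.8 and 29.9 CPM in dasatinib 1x, against 41.1 CPM in DMSO 16x, 40 CPM in DMSO 1x and 30.3 and 30.7 CPM in parental libraries. The dasatinib 16x and DMSO lines thus lay above the parental libraries and the dasatinib 1x lines below them. It was called in none of the 3 main comparisons: the log2 change was 0.52 ± 0.15 for dasatinib 16x against 1x (adjusted p 0.116, no overlap between the groups), 0.18 ± 0.14 for 16x against drug-free (adjusted p 0.402) and -0.33 ± 0.14 for 1x against drug-free (adjusted p 0.229). The 16x against 1x difference was called by DESeq2 (0.51, adjusted p 0.0199). Against the parental libraries alone, dasatinib 16x was higher by 0.40 ± 0.12 (adjusted p 0.0343). RefSeq also lists the name Abcb4 among the synonyms of Abcb1a, and the table holds a row for each symbol.

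Abcg2, the breast cancer resistance protein, varied most among the well-expressed members, with a standard deviation of 0.84 on the log2 CPM scale over the 10 libraries. It stood at 8.92, 6.62 and 4.99 CPM in dasatinib 16x and 14, 11.8 and 12.4 CPM in dasatinib 1x, against 1.88 CPM in DMSO 16x, 6.05 CPM in DMSO 1x and 9.17 and 8.9 CPM in parental libraries. The 1x lines were the highest and did not overlap with any other group, the 16x lines spanned the DMSO 1x level and reached the parental one, and DMSO 16x was the lowest library. The drug-free class therefore had a wide spread (6.5 ± 3.39 CPM, n = 4), and neither dasatinib group passed the test against it: the log2 change was 0.08 ± 0.44 at 16x (adjusted p 0.931) and 0.97 ± 0.43 at 1x (adjusted p 0.254). Its direction at 16x changed with the libraries used: without DMSO 16x the value was -0.23 (adjusted p 0.507), against the parental libraries alone -0.40 ± 0.20 (adjusted p 0.183), and without dasatinib 16x A -0.16 (adjusted p 0.889). Dasatinib 16x against 1x gave -0.90 ± 0.47 (adjusted p 0.401), called in 1 of the 10 fits that left out a library, without DMSO 16x (-0.89, adjusted p 0.0348).

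RefSeq gives 3 start sites for Abcg2, and they are shown because the counts sum over them and cannot say which was used. On chromosome 6, plus strand, GRCm38.p6, the windows before them are chr6:58584283-58584532 (site 1), chr6:58596422-58596671 (site 2) and chr6:58640296-58640545 (site 3), with capitals as above.
Abcg2 site 1: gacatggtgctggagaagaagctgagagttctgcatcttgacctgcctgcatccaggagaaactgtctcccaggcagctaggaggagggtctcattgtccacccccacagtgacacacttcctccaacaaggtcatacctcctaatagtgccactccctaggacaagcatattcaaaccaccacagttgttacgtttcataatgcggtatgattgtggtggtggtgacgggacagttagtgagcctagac
Abcg2 site 2: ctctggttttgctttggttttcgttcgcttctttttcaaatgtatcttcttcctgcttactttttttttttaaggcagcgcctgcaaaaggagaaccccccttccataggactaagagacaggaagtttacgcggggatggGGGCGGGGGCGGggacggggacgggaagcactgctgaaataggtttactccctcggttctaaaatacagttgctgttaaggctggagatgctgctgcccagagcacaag
Abcg2 site 3: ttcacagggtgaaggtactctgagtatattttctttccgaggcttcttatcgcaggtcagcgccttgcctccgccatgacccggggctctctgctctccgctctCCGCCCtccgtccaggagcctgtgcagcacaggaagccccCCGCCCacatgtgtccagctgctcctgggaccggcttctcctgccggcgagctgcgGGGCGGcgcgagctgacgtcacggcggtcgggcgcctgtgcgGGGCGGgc
Site 1 held none of the 5 motifs, site 2 held 2 GC boxes side by side at -109 to -98, and site 3 held 4 GC boxes, the nearest at -8 to -3. The share of G or C was 51.2, 50 and 67.6% in sites 1, 2 and 3.

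Each dasatinib group was also set against the DMSO line of its own step, in a fit with a term for each of the 5 groups. A DMSO group is a single library, assumed to vary like the replicated groups, and the comparisons of DMSO lines with parental share those libraries, so their values are given side by side. At 16x, 4 of the 7 transporters were called against DMSO 16x, beside 35.7% of all genes (18.9% higher, 16.8% lower). Abcg2 was higher by 1.87 ± 0.31 (adjusted p 0.0013), Abcb1b by 0.68 ± 0.07 (adjusted p 1.1e-05) and Abcc4 by 0.64 ± 0.05 (adjusted p 2e-06), and Abcc1 had a log2 change of -5.86 ± 0.83 (adjusted p 0.000817). DMSO 16x itself differed from parental in 3 of 7 (30.9% of all genes, 14.7% higher and 16.2% lower): Abcg2 by -2.26 ± 0.33 (adjusted p 0.00059), Abcc4 by -0.44 ± 0.05 (adjusted p 7.63e-05) and Abcb1b by -0.36 ± 0.07 (adjusted p 0.00208). Abcb4 (0.43 ± 0.15, adjusted p 0.0631) was called without dasatinib 16x A (0.43, 0.0016) or B (0.44, 0.0134), and Abcc1 (1.12 ± 0.73, adjusted p 0.294) without dasatinib 16x C (1.12, 0.0278). Abcg2, Abcc4 and Abcb1b were thus low in the late vehicle library and high in dasatinib 16x relative to it. For Abcb1b the chromosome 5 genes moved likewise, with medians of 0.54 in dasatinib 16x against DMSO 16x and -0.47 in DMSO 16x against parental. Among them Abcb1b was at percentile 70 in the former and 67 in the latter, where it fell less than the median.

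At 1x, 3 of 7 were called against DMSO 1x (13.5% of all genes, 6.86% higher and 6.66% lower). Abcb1b rose by 0.48 ± 0.07 (adjusted p 0.000741), Abcg2 by 1.07 ± 0.27 (adjusted p 0.0304), and Abcc1 had a log2 change of -4.45 ± 0.82 (adjusted p 0.00957; DESeq2 0.0716). Here Abcb1b was at percentile 91.3 of the chromosome 5 genes, whose median was 0.25. The Abcg2 call was lost without dasatinib 1x A (1.00, adjusted p 0.0724), dasatinib 1x C (1.09, 0.0661), parental A (1.07, 0.0606) or parental B (1.07, 0.0608). Abcb4 just missed the threshold (-0.51 ± 0.14, adjusted p 0.0501), and was called without DMSO 16x (-0.51, 0.0486), dasatinib 16x A (-0.50, 0.000791) or dasatinib 16x B (-0.51, 0.00864). DMSO 1x differed from parental in 0 of 7 with edgeR and 0 with DESeq2, although 3 had an unadjusted p under 0.05, beside 6.17% of all genes called (3.31% higher, 2.87% lower). Without dasatinib 16x A, Abcb4 (0.39, adjusted p 0.0137) and Abcg2 (-0.58, 0.0483) were called there, and without dasatinib 16x B Abcb1b (-0.21, 0.0398).

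The 8 nearest tested genes to Abcg2 on chromosome 6 were looked at after the Abcg2 values were seen, and they varied. Herc3 stood at 19.1, 12.1 and 11.8 CPM in dasatinib 16x and 17.2, 18 and 17 CPM in dasatinib 1x, against 2.06 CPM in DMSO 16x, 9.49 CPM in DMSO 1x and 13.2 and 14.7 CPM in parental libraries. The log2 change of Herc3 was -2.76 in DMSO 16x against parental (adjusted p 0.000513) and 2.80 in dasatinib 16x against DMSO 16x (adjusted p 0.000338). Herc6 had -0.89 (adjusted p 0.000309) and 0.60 (adjusted p 0.00282) in the same comparisons, and Fam13a -1.90 (adjusted p 0.055) and 2.52 (adjusted p 0.0105). Vopp1 had -3.07 (adjusted p 0.165) and -0.61 (adjusted p 0.787). The other 4, Ppm1k, Lancl2, Tigd2 and Smarcad1, lay between -0.33 and 0.12 in DMSO 16x against parental. The chromosome 6 median in that comparison was 0.04.

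**Figure D4:**
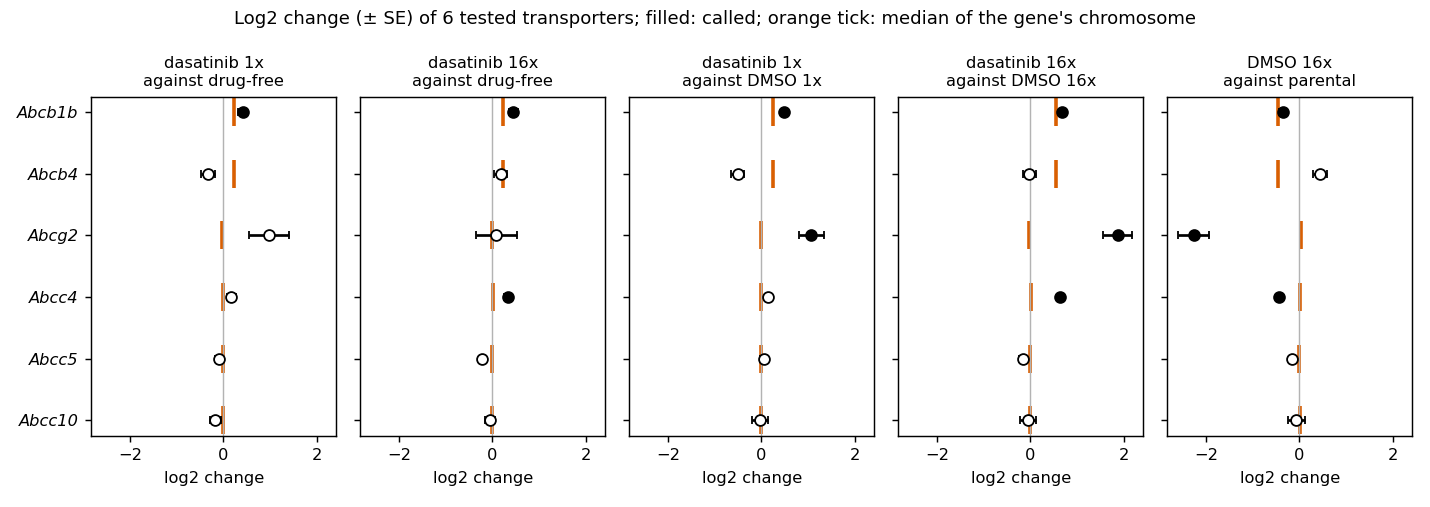
Log2 change with its standard error for 6 tested transporters in 5 comparisons, filled where called, with an orange tick at the median of the gene's chromosome; Abcc1 is left out because its changes run to -5.86. Abcg2, Abcc4 and Abcb1b are called in opposite directions in dasatinib 16x against DMSO 16x (1.87, 0.64 and 0.68) and in DMSO 16x against parental (-2.26, -0.44 and -0.36).

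Abcc1, which encodes MRP1, the exporter of glutathione conjugates and leukotriene C4, was low throughout and lowest in the dasatinib lines. It had 0, 0 and 9 counts in dasatinib 16x and 3, 4 and 7 in dasatinib 1x, against 159 in DMSO 16x, 103 in DMSO 1x and 48 and 95 in parental libraries. In CPM this was at most 0.215 in dasatinib libraries and 1.64 to 4.26 in drug-free ones, with no overlap. All 9 counts at 16x came from library C.

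Relative to library size, the summed count at 16x was 39.8-fold lower than in drug-free libraries (95% counting interval 20.8 to 87.6) and that at 1x 22.1-fold lower (13 to 40.9). Libraries 16x A and B together, at 0, were at least 80.4-fold lower, with a floor of 3 counts over the pair. The fitted log2 change was -5.22 ± 0.85 at 16x (adjusted p 0.00469, called in all 10 fits that left out a library) and -4.42 ± 0.80 at 1x (adjusted p 0.0328). Without 16x C the fitted value of -5.22 became -9.71, which depends on the prior count. The 1x call was lost without DMSO 1x (-4.41, adjusted p 0.0898), dasatinib 1x A (-4.28, 0.167), B (-4.28, 0.167) or C (-4.77, 0.139). The tested genes beside Abcc1 on chromosome 16 had no such fall: the 4 on each side lay between -0.23 and 0.16 at 16x and between -0.22 and 0.11 at 1x.

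Abcc4, which encodes MRP4, an exporter of cyclic nucleotides and nucleotide analogues, was tight within its replicated groups. It stood at 69.2, 68.9 and 71.1 CPM in dasatinib 16x and 62.5, 61.3 and 63.3 CPM in dasatinib 1x, against 44.8 CPM in DMSO 16x, 56 CPM in DMSO 1x and 60.5 and 60.6 CPM in parental libraries. The 16x lines lay above the 1x lines, these above the parental line, and both DMSO lines below it. Abcc4 rose at 16x (69.7 ± 1.2 CPM, n = 3) relative to drug-free libraries (55.5 ± 7.46 CPM, n = 4; log2 change 0.33 ± 0.09, adjusted p 0.0363), and against the parental libraries alone by 0.20 ± 0.04 (adjusted p 0.00282). At 1x it was not called (0.17 ± 0.09, adjusted p 0.328), nor in 16x against 1x (0.16 ± 0.10, adjusted p 0.476), except without DMSO 16x (0.16, 0.0365).

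The 16x call of Abcc4 held in 3 of the 10 fits that left out a library, those without DMSO 16x (0.24, adjusted p 0.00228), parental A (0.37, 0.0348) or parental B (0.37, 0.0309). It was lost without DMSO 1x (0.33, 0.0772), dasatinib 1x A (0.33, 0.0579), B (0.33, 0.056) or C (0.33, 0.0572), or dasatinib 16x A (0.34, 0.09), B (0.34, 0.0764) or C (0.32, 0.109). DMSO 16x was the lowest of the 4 drug-free libraries in Abcc4.

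The dose step itself, 16x against 1x, was compared between dasatinib and vehicle lines by an interaction term. Of the 7 tested transporters 1 was called (14.3%), Abcc4, with a difference of 0.48 ± 0.07 (adjusted p 0.00214, called in all 8 fits that left out a library), beside 6.74% of all genes (5.37% higher, 1.37% lower). It went up under dasatinib and down under DMSO. For Abcg2 the difference was 0.79 ± 0.40 (adjusted p 0.332), for Abcb4 0.48 ± 0.20 (adjusted p 0.249) and for Abcb1b 0.19 ± 0.09 (adjusted p 0.307, beside a chromosome 5 median of 0.30). Abcc1 had -1.40 ± 1.36 (adjusted p 0.669), Abcc5 -0.22 ± 0.11 (adjusted p 0.308) and Abcc10 -0.01 ± 0.24 (adjusted p 0.99). Abcb4 was called without dasatinib 16x A (0.58, 0.00869) and Abcc1 without dasatinib 16x C (-5.89, 0.0145). The vehicle arm rests on 1 library at each step.

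Abcc5 and Abcc10 varied least, with a standard deviation of 0.13 each on the log2 CPM scale. Abcc5, which encodes MRP5, another exporter of cyclic nucleotides, stood at 32, 31.2 and 29.1 CPM in dasatinib 16x and 35.4, 31.8 and 33.3 CPM in dasatinib 1x, against 34.6 CPM in DMSO 16x, 32.2 CPM in DMSO 1x and 37.6 and 39.2 CPM in parental libraries. All 3 dasatinib 16x libraries lay below the drug-free ones by a small margin (-0.22 ± 0.07, adjusted p 0.0656). It was called without DMSO 1x (-0.27, adjusted p 0.0358), without DMSO 16x (-0.24, 0.0407) and against the parental libraries alone (-0.32 ± 0.06, 0.00257). At 1x Abcc5 had -0.10 ± 0.07 (adjusted p 0.458). Abcc10, which encodes MRP7, stood at 5.69, 6.42 and 5.25 CPM in dasatinib 16x and 4.87, 5.71 and 5.42 CPM in dasatinib 1x, against 5.98 CPM in DMSO 16x, 5.47 CPM in DMSO 1x and 6 and 6.58 CPM in parental libraries. These groups overlapped, and the changes of Abcc10 were -0.05 ± 0.11 at 16x (adjusted p 0.794) and -0.17 ± 0.11 at 1x (adjusted p 0.415).

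Abcc3, which encodes MRP3, an exporter of bile acids and glucuronides in liver and gut, had 0, 4 and 0 counts in dasatinib 16x and 0, 0 and 3 in dasatinib 1x, against 0 in DMSO 16x, 0 in DMSO 1x and 1 and 0 in parental libraries. No group could be told from another at this depth, where a count of 0 allows up to 0.0659 to 0.102 CPM.

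Between 16x and 1x, 0 of the 7 tested transporters were called by edgeR, while 2.13% of all genes were (1.21% higher, 0.928% lower). With an unadjusted p under 0.05 there was 1, and DESeq2 called 1, which was Abcb4. The median over the 7 members was 0.04 in this comparison, 0.08 in 16x against drug-free and -0.10 in 1x against drug-free, with all genes at 0.002, -0.004 and -0.006.

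Among 44 other ABC genes, 20 were tested; at 16x 7 rose and 1 fell against drug-free (40%, where all genes gave 16.1%), and at 1x 2 rose and 1 fell (15%, where all genes gave 1.96%). Tap2, a subunit of the peptide pump that loads MHC class I, rose to 126 ± 9.3 CPM at 16x (n = 3), against 80.5 ± 3.87 CPM in drug-free libraries (n = 4; log2 change 0.65 ± 0.05, adjusted p 0.000247), and to 104 ± 2.61 CPM at 1x (0.37 ± 0.05, adjusted p 0.0137). The 1x call of Tap2 was lost without any of the dasatinib 1x libraries (adjusted p up to 0.0919, the highest over all alternatives run, as for the other lists' genes). Abcb8, a mitochondrial transporter on chromosome 5, rose to 132 ± 2.93 CPM at 16x, against 103 ± 7.09 CPM (0.35 ± 0.05, adjusted p 0.00344), and was called at 1x too (0.32 ± 0.05, adjusted p 0.0262). Abca7 rose to 59.3 ± 1.05 CPM, against 47.9 ± 2.45 CPM (0.31 ± 0.04, adjusted p 0.00219), and Abcg1, a cholesterol exporter, by 0.24 ± 0.05 (adjusted p 0.0144, lost without dasatinib 16x A, up to 0.0596). Abca6 went the other way, with 5 counts at 16x and 3 at 1x, against 123 in drug-free libraries (16x adjusted p 0.00504, 1x 0.0231). Like Abcc1, it had counts high enough to be tested only through drug-free libraries. The 1x calls of Abcb8 and Abca6 were lost without DMSO 1x or any dasatinib 1x library (adjusted p up to 0.141 and 0.121). In 16x against 1x edgeR called 1 of the 20 (5%, where all genes gave 2.13%), which was Tap2 (0.28 ± 0.06, adjusted p 0.0471), while 5 had an unadjusted p under 0.05 and DESeq2 called 3. The Tap2 call was kept in 1 of the 10 fits that left out a library, without DMSO 16x (adjusted p up to 0.199 in the others).

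Of 19 drug uptake carriers, 9 were tested, and at 16x 1 rose and 2 fell (33.3%, where all genes gave 16.1%). Slc22a8, an organic anion carrier, rose to 13.4 ± 3.52 CPM at 16x, against 2.37 ± 0.301 CPM in drug-free libraries (2.49 ± 0.17, adjusted p 0.000211). Slc15a2, a peptide carrier, fell to 7.06 ± 0.772 CPM, against 10.8 ± 0.956 CPM (-0.61 ± 0.10, adjusted p 0.00462), and Slc29a1, the nucleoside carrier ENT1, to 147 ± 1.08 CPM, against 172 ± 13.3 CPM (-0.22 ± 0.05, adjusted p 0.0235). The Slc29a1 call was lost without DMSO 1x or any dasatinib 16x library (adjusted p up to 0.152). At 1x edgeR called 1 of the 9 (11.1%, where all genes gave 1.96%), which was Slc22a8 (1.69 ± 0.17, adjusted p 0.00311), while 3 had an unadjusted p under 0.05 and DESeq2 called 2. In 16x against 1x edgeR called 0 of 9 (2.13% of all genes), with 3 at an unadjusted p under 0.05 and 1 called by DESeq2.

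Of 23 known regulators of transporter genes, 20 were tested. At 16x 2 rose and 3 fell (25%, where all genes gave 16.1%), and at 1x none passed the edgeR test (1.96% of all genes), although 5 had an unadjusted p under 0.05 and DESeq2 called 1. Ahr, the xenobiotic receptor, rose to 32.3 ± 3.53 CPM at 16x, against 13.7 ± 3.04 CPM in drug-free libraries (1.24 ± 0.17, adjusted p 0.00194). Ets1 fell to 52.2 ± 8.96 CPM, against 81.7 ± 7.03 CPM (-0.65 ± 0.11, adjusted p 0.00526), and differed also from 1x (83.4 ± 3.32 CPM; -0.68 ± 0.11, adjusted p 0.0217, lost without any dasatinib 1x library or dasatinib 16x C, up to 0.107). Sp1, which binds GC boxes, fell by 0.21 ± 0.04 on the log2 scale (adjusted p 0.00644, lost with the replicate letter as a term in the fit, 0.0578). Nfya, a subunit of the CCAAT-binding factor NF-Y, fell by 0.13 ± 0.03 (adjusted p 0.0253, lost without DMSO 1x, dasatinib 16x B or C, or either parental library and without a filter on low counts, up to 0.115). Against 1x Nfya was lower by -0.16 ± 0.03 (adjusted p 0.0489), kept without DMSO 16x or dasatinib 16x A and lost in the other 8 fits that left out a library (up to 0.17). Jun rose by 0.74 ± 0.21 (adjusted p 0.0429), kept without DMSO 16x or dasatinib 16x B and lost in the other 8 fits that left out a library, without a filter on low counts and against the parental libraries alone (up to 0.163). Over the alternatives its log2 change was 0.47 to 0.87.

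Of 31 glutathione and NRF2-induced genes, 25 were tested, with 6 higher and 1 lower at 16x (28%, where all genes gave 16.1%) and 4 higher at 1x (16%, where all genes gave 1.96%). Ftl1, the ferritin light chain, rose to 1141 ± 60.9 CPM at 16x, against 572 ± 89.6 CPM in drug-free libraries (1.00 ± 0.11, adjusted p 0.000779). Gsr, glutathione reductase, rose by 0.47 ± 0.06 (adjusted p 0.00181), Fth1 by 0.53 ± 0.09 (adjusted p 0.00433) and Hmox1, haem oxygenase 1, by 1.97 ± 0.12 (adjusted p 0.000201). Gclm rose by 0.25 ± 0.04 (adjusted p 0.00618, lost with the replicate letter as a term in the fit, 0.0549). At 1x the 4 were Hmox1 (1.36 ± 0.12, adjusted p 0.00253), Ftl1 (0.75 ± 0.11, 0.0137), Nqo1 (2.69 ± 0.40, 0.0137) and Gsr (0.38 ± 0.06, 0.0231). Of these, Ftl1 and Gsr were lost without any dasatinib 1x library, Nqo1 without dasatinib 1x A or B, and Gsr and Nqo1 also without DMSO 1x (adjusted p up to 0.164). Nqo1, a quinone reductase, was low throughout, with 126 counts in dasatinib 1x and 25 in drug-free libraries. In 16x against 1x edgeR called 1 of the 25 (4%, where all genes gave 2.13%), which was Hmox1 (0.61 ± 0.12, adjusted p 0.0366), while 4 had an unadjusted p under 0.05 and DESeq2 called 2. The Hmox1 call was kept without DMSO 16x or parental B and lost in the other 8 fits that left out a library (up to 0.181).

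Of 25 drug metabolising enzymes, 14 were tested, with 2 higher and 3 lower at 16x (35.7%, where all genes gave 16.1%) and none called at 1x by edgeR (1.96% of all genes), where 6 had an unadjusted p under 0.05 and DESeq2 called 3. Por, on chromosome 5, rose by 0.19 ± 0.05 (adjusted p 0.0363), kept without DMSO 16x, dasatinib 16x C or parental A and lost in the other 7 fits that left out a library (up to 0.129). Cyp4f16 fell by 1.17 ± 0.26 on the log2 scale (adjusted p 0.0162, lost without dasatinib 16x C, up to 0.0775). Cbr3 and Cbr1, neighbouring carbonyl reductases on chromosome 16, had 1 and 5 counts at 16x, 0 and 2 at 1x, and 117 and 98 in drug-free libraries (16x adjusted p 0.0225 and 0.0239). Both had counts high enough to be tested only through drug-free libraries. Each call held in 4 of the 7 fits that left out a library and still tested the gene. Both were lost without any of the 3 dasatinib 16x libraries (adjusted p up to 0.119 and 0.128). In the remaining fits that left out a library, both genes were too low to be tested. The drug-free counts lay mostly in the DMSO lines, with 73 in DMSO 16x, 25 in DMSO 1x and 9 and 10 in parental libraries for Cbr3, and 33, 52, 9 and 4 in the same libraries for Cbr1. Against the parental libraries alone the Cbr1 call was lost, and over the alternatives its log2 change was -4.39 to -2.13.

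Genes whose levels followed a transporter most closely were sought among 3100 tested genes with a standard deviation of log2 CPM of at least 0.3. Pearson correlations are over the 10 libraries, which share their groups, and describe likeness alone. Abcb1b was closest to Atf5 (0.990), Pla2g4a (0.986) and Sema3g (0.978), on chromosomes 7, 1 and 14. Abcc4 was closest to Fbxo4 (0.990), Cacna1i (0.987) and Tmem173 (0.985). Abcg2 was closest to Creb3l2 (0.983), Hspb8 (0.982) and Utrn (0.981), of which Creb3l2 is also on chromosome 6. Abcb4 was closest to Slc16a12 (0.933), Zbtb32 (0.930) and Prkag3 (0.928), Abcc5 to Gpr124 (0.928), mKIAA1839 (0.895) and Syne2 (0.881), and Abcc10 to AK133925 (0.877), Clic3 (0.862) and AK008833 (0.844). No minimum level was set for the genes searched, and those named had means from 0.249 CPM (mKIAA1839) to 176 CPM (Tmem173). Slc16a12 (0.426), Prkag3 (0.55), Gpr124 (0.573), Hspb8 (0.61) and AK008833 (0.665 CPM) were also low. Abcc5 and Abcc10 themselves varied less (0.13) than the genes searched.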

How the data were processed

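RNA sequencing counts per gene, deposited by the authors as a table of raw counts for 10 libraries, were analysed; the reads were not analysed here. Per the submitters' processing notes, CASAVA 1.7.0, Trimmomatic 0.33, TopHat2 2.0.12, BWA 0.7.10, SAMtools, HTSeq 0.6.1 and DESeq were used, with mm9. The strand setting is not stated in the labels or notes, and reads of overlapping genes cannot be told apart. The transporters and all gene lists were chosen with earlier results of these data known.

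A count was present for 18621 of 29955 genes, and filterByExpr (minimum count 10) left 12282 for testing in R 4.3.3 with edgeR 4.0.16 (TMM scaling, robust quasi-likelihood test, Benjamini-Hochberg at 0.05). Dasatinib against drug-free, and 16x against 1x, came from a model of 3 classes (dasatinib 16x, dasatinib 1x, drug-free; biological coefficient of variation 15.3%, 7 residual degrees of freedom), and the vehicle comparisons a fit of 5 groups (7.27%, 5 degrees of freedom). CPM used TMM-effective library sizes. Chromosomes and neighbours came from RefSeq GRCm38.p6 names (11327 tested genes matched) and transcript lengths from GENCODE vM21, by symbol. Sequences were credited to RefSeq GRCm38.p6, with 7 of the 9 transporters matched. Counting intervals are exact at 95% and the floor is 3 counts.

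All 9 transporters are named. Of the other lists, called genes were named in the 3 main comparisons, at most 5 per list by the smallest p, and 1 gene that this names is not reported here. The 3 most similar genes were named for each transporter with a mean of at least 5 CPM. Alternatives were RLE scaling, no filter, DESeq2 1.42.0, a replicate block, parental libraries alone as reference, and leaving out each library. On simulated data with 200 changed genes, 80.0% were recovered for 16x against drug-free (67.2% at 1.5-fold, 6 false calls), 77.5% for 1x against drug-free (62.1%, 5) and 80.0% for 16x against 1x (67.2%, 9). The simulated spread was that within the 5 groups, with parental and DMSO libraries at the same mean. The simulation thus lacked the drift between drug-free lines that the 3-class model holds. Power in the data may be lower and false calls more frequent than these figures.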

Additional observations from a re-analysis of the deposited data

Results flagged for a closer look

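Abcc4 differed in its dose step between drug and vehicle. The step, 16x minus 1x, was larger under dasatinib than under DMSO by 0.48 ± 0.07 on the log2 scale (edgeR interaction term, adjusted p 0.00214). Abcc4 stood at 69.7 ± 1.2 CPM in dasatinib 16x and 62.4 ± 1.02 CPM in dasatinib 1x (SD, n = 3 each), and at 44.8 CPM in DMSO 16x and 56 CPM in DMSO 1x (1 library each). The difference was called in all 8 fits that could be made without a library, with adjusted p-values of 0.00117 to 0.00811. The median over chromosome 14, where Abcc4 lies, was 0.01.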

How the results depend on the processing

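Over the alternatives run, 645 of 704 values of single transporters kept their direction and their side of the threshold, 26 lost a call, 24 gained one and 9 turned direction. The dose step terms of Abcc5 and Abcc10 are left out of this tally and of the turned directions given below. RLE scaling and the absence of a filter on low counts changed no count by more than 1.5 times. Genes called numbered 241 for dasatinib 1x against drug-free (DESeq2 853, parental alone 708), 1980 for 16x against drug-free (parental alone 3252) and 262 for 16x against 1x (DESeq2 805). Transporters called numbered 3 for 16x against drug-free (5 with parental alone) and 0 for 16x against 1x (1 with DESeq2). Leaving out a library gave 17 to 516 genes for 1x against drug-free (0 to 2 transporters), 1005 to 2765 for 16x against drug-free, 41 to 978 for 16x against 1x (0 to 2), 110 to 1410 for DMSO 1x against parental (0 to 2) and 538 to 1248 for the dose step term (1 to 2). Direction turned for Abcg2 at 16x against drug-free (-0.40 with parental alone, -0.23 to 0.28 without a library), for Abcb4 at 16x against DMSO 16x (-0.13 to 0.0776), and for Abcc10 at 16x against drug-free (-0.13 to 0.0123), 16x against DMSO 16x (-0.13 to 0.015), 1x against DMSO 1x (-0.0883 to 0.0217) and DMSO 16x against parental (-0.14 to 0.00118). None of these was called. Libraries were compared by letter after the group's mean log2 CPM had been subtracted from each tested gene. Correlations of these deviations between same-letter libraries were 0.0273 to 0.0647 between 16x and 1x and -0.00925 to 0.0207 with parental. No limit was set for how high they would have to be, and the main fits did not treat the letter as a pairing. With 2 parental libraries the deviations mirror each other, so the values with parental A and B differ only in sign. By the same measure, each of the 3 dasatinib 16x libraries correlated best with its own letter at 1x, where unlike letters gave -0.0525 to 0.00857. With the letter as a replicate block, which also takes the DMSO libraries, as they carry no letter, out of the contrast with drug-free, so that both changes act together, 54 genes and 1 transporter were called at 1x against drug-free (Abcb1b 0.27, adjusted p 0.205), 408 genes and 1 transporter in 16x against 1x (Abcb4 0.51, adjusted p 0.0455), and Abcg2 at 16x against drug-free was -0.32 and Abcc4 0.19 (adjusted p 0.219). Among the named genes of the other lists, the block lost the calls of Abcg1, Slc29a1, Sp1, Nfya, Jun, Gclm, Por, Cyp4f16, Cbr3 and Cbr1 at 16x against drug-free. Also lost were those of Tap2, Abcb8, Abca6, Ftl1, Nqo1 and Gsr at 1x against drug-free, and of Nfya in 16x against 1x. For the 4 comparisons with a single DMSO library no block could be fitted, since these libraries carry no letter, and leaving out the DMSO library used left no value. Counts near or under the floor of 3 per library, as for Abcb1a, Abcc3 and Abcc1 under dasatinib, limit what depth can show. The cause of these changes was not tested.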
